A study of Mus musculus with 14 samples.

Results

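The 34 genes described here encode the factors that drive skeletal muscle differentiation and the proteins from which the sarcomere, the contractile unit of muscle, is built. They were taken from the count tables by gene symbol. They had been picked because several of them differed between Smad4Δ/Δc and wild-type mouse forelimb buds in opposite directions at the 2 stages studied. The differences between genotypes, and between stages within a genotype, are therefore given for them as a description. For these comparisons no p-value is printed, and where the members called in the fit across all genes are counted, nothing is read from the count. All 34 were among the 23284 gene symbols counted, and 17 of them belonged to the 12393 genes that were tested. Tested genes had at least 1 CPM, a read count scaled to the size of the library, in at least 3 of the 14 libraries. A gene can pass this filter through the group in which it is high, so that a count over the 17 gives no support to a difference.

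RNA-seq was done on forelimb buds of NMRI mouse embryos with 30 somites (E10.0) or 35 somites (E10.5), from 3 wild-type and 4 mutant embryos at each stage. Both buds of an embryo were pooled into 1 polyA library, and the replicates are different embryos. Mutants had the genotype Smad4Δ/Δc PrxCreT/+, in which 1 Smad4 allele was deleted in all cells and the other was inactivated by CRE recombinase. The embryos called wild type were Smad4+/+ PrxCreT/+, so that all 4 groups carried the same transgene. The transgene drives CRE from Prrx1 regulatory sequence in the limb bud mesenchyme, whereas the muscle precursors of the limb migrate in from the somites. The RNA came from whole buds, in which fewer muscle cells and less RNA per muscle cell cannot be told apart.

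Smad4 itself was measured at 169, 152 and 161 CPM in the wild-type embryos and 38.4, 46.0, 37.8 and 36.9 CPM in the mutants at E10.0. At E10.5 it was measured at 167, 163 and 167 CPM in wild-type buds and 40.7, 38.8, 32.9 and 35.6 CPM in mutant buds, so that every library matched its label. Between 34066930 and 61691258 reads were counted on genes per library, and between 2414 and 6955 of them fell on the 34 muscle genes. Some libraries stood apart. Wild-type replicate 3 at E10.5 was the highest of its group for 31 of the 34 muscle genes. In mutant replicates 4 and 5 of both stages, the ribosomal RNA precursor made up 1.72% to 8.05% of all counts, while the other 10 libraries had 0.151% to 0.478%. For many of the results that rest on these libraries, values or counts without them are given as well.

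Skeletal muscle cells arise when precursors that express Pax3 switch on Myf5 and Myod1, the basic helix-loop-helix factors that commit cells to the muscle fate. Myog and Myf6 act later in the same family, and Myog drives differentiation into myocytes, which then fuse and assemble sarcomeres. The factors of this family bind the E-box, a short DNA motif, and act together with MEF2 proteins. In the sarcomere, myosin thick filaments slide along actin thin filaments under the control of troponin and tropomyosin, while titin and nebulin set filament position and length. The first cells of the developing limb to express these genes lie in the dorsal and ventral muscle masses.

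The promoters of 28 of the 34 genes were found in RefSeq (mouse build GRCm38.p6) and searched for motifs over the 250 bases before the start of transcription, which gave 33 windows. The genes not found were Myod1, Myf6, Tnnt3, Tnni2, Neb and Xirp1. Windows are shown for Myog, Actc1, Myh3, Tnnt1 and Smyd1, which separated the genotypes in opposite directions at the 2 stages, and for Myf5 and Des, which had other patterns. They are written 5′ to 3′, and the capitals mark E-boxes (CANNTG) and, in Actc1, the CArG box, the binding site of serum response factor.
Myog, chr1:134289754-134290003, plus strand: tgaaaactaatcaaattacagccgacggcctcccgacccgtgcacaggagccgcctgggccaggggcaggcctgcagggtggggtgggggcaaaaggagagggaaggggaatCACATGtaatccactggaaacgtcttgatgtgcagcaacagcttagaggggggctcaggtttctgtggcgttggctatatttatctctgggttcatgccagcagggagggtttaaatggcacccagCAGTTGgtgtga
Actc1, chr2:114052876-114053125, minus strand: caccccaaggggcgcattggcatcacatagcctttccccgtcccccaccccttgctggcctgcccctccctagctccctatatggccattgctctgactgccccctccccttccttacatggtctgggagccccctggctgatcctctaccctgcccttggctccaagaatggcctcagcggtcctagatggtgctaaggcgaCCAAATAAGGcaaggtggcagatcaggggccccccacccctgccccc
Myh3, chr11:67078050-67078299, plus strand: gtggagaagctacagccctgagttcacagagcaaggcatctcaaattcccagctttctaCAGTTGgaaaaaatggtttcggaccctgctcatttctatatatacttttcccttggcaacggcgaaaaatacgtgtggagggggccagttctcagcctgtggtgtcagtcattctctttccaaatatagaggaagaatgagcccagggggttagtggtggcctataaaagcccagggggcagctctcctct
Tnnt1, chr7:4515976-4516225, minus strand: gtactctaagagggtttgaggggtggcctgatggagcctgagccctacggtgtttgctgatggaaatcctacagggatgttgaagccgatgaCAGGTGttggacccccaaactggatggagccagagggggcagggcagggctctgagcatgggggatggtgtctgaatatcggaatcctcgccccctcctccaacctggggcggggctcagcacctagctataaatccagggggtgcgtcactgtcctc
Smyd1, chr6:71262282-71262531, minus strand: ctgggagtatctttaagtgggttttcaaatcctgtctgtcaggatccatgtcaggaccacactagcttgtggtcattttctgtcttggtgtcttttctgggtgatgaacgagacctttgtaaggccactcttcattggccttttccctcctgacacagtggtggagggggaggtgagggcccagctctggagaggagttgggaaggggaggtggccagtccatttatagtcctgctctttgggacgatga
Myf5, chr10:107486135-107486384, minus strand: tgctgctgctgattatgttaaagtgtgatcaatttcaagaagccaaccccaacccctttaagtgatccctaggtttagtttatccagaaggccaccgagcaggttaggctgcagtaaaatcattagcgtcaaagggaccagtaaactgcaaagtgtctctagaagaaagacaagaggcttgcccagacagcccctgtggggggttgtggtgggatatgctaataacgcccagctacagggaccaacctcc
Des, chr1:75360042-75360291, plus strand: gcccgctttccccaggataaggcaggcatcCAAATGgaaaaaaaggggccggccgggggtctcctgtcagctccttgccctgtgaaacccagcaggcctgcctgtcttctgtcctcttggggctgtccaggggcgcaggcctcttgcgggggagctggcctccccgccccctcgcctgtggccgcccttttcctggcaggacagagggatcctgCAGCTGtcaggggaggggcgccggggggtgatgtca

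An E-box was present in 27 of the 33 windows (81.8%), against 66.2% of the 32851 promoter windows of the same length in the RefSeq table, with both strands searched. The E-box CAGCTG, which is contained in the first motif, was found in 33.3% of the muscle gene windows and in 13% of all windows. The CArG box was found in 2 windows, those of Actc1 and Acta1 (6.06% against 1.47% of all windows). The full consensus of the MEF2 site matched 3 windows, those of Casq2, Myh8 and Ttn (9.09% against 2.92%). When its last base was left free, a change made after these matches had been seen, it matched 9 windows (27.3% against 7.07%), among them those of Myog and Myh3; these matches are not in capitals. The printed windows of Smyd1 and Myf5 held none of these motifs. A match describes the letters of a window and does not show binding, and the shares were not tested.

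Among the regulatory factors, Myog had the widest range (chr1:136186581-136189124 in mm9, plus strand). At E10.0, Myog was at 0.274, 0.102 and 0.242 CPM in wild-type replicates 1, 2 and 3, and at 5.63, 2.16, 2.98 and 3.94 CPM in mutant replicates 1, 3, 4 and 5. At E10.5, Myog was at 4.52, 3.02 and 7.75 CPM in wild type, against 1.05, 1.5, 0.198 and 0 CPM in mutant replicates 1, 2, 4 and 5. All mutants thus lay above all wild-type embryos at E10.0 and below all of them at E10.5. The log2 fold change of mutant over wild type was 4.14 (SE 0.33) at E10.0 and -2.85 (SE 0.76) at E10.5, where SE is the standard error from the embryos. No Myog read was counted in mutant replicate 5 at E10.5, which allows a level of up to 0.0977 CPM in that library (3 reads, counting error only). In wild type, Myog therefore went from the lowest to the highest mean of the 4 groups between the stages (0.206 ± 0.0914 and 5.1 ± 2.41 CPM, SD, n=3), whereas the mutant mean went from 3.68 ± 1.49 to 0.688 ± 0.709 CPM (SD, n=4).

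Myf5 and Myod1, which act before Myog, followed the stage more than the genotype. Myf5 (chr10:106919964-106923190, minus strand) was at 0.749, 0.613 and 0.374 CPM in wild-type buds and 1.98, 1.14, 1.53 and 0.934 CPM in mutant buds at E10.0. At E10.5 its levels were 3.96, 4.75 and 6.87 CPM in wild-type buds and 5.05, 4.64, 3.37 and 4.14 CPM in mutant buds. Mutants lay above wild type without overlap at E10.0, and the genotypes overlapped at E10.5, with log2 fold changes of 1.26 (SE 0.28) and -0.27 (SE 0.25). Myod1 (chr7:53631844-53634462, plus strand) had 0, 2 and 0 reads in the wild-type embryos at E10.0 (0, 0.0409 and 0 CPM), where a count of 0 allows up to 0.066 CPM. The mutants had 0.496, 0.208, 0.246 and 0.394 CPM of Myod1 at that stage. At E10.5, Myod1 was at 0.697, 0.609 and 1.29 CPM in wild-type buds and 1.08, 0.8, 0.821 and 0.716 CPM in mutant buds, and the group means were 0.866 ± 0.371 and 0.856 ± 0.159 CPM. For both genes, the 7 embryos at E10.5 all lay above the 7 embryos at E10.0, which held for 3.62% of all tested genes and, among the 34, for these 2 genes.

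Myf6, the neighbour of Myf5 on chromosome 10 and a factor of later muscle, had few reads but the pattern of Myog. It was at 0.11, 0.184 and 0.066 CPM in wild-type buds and 0.65, 0.433, 0.355 and 0.271 CPM in mutant buds at E10.0, and at 0.457, 0.255 and 0.241 and 0.0711, 0.215, 0.0283 and 0.0651 CPM, respectively, at E10.5. Mutants lay above wild type without overlap at the earlier stage and below it without overlap at the later one, at 1 to 38 reads per library. Mef2c, a partner of the muscle factors that other limb cells also express, ranged from 14.3 to 21.0 CPM over all embryos, with log2 fold changes of 0.14 (SE 0.04) and -0.19 (SE 0.14).

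**Figure D1:**
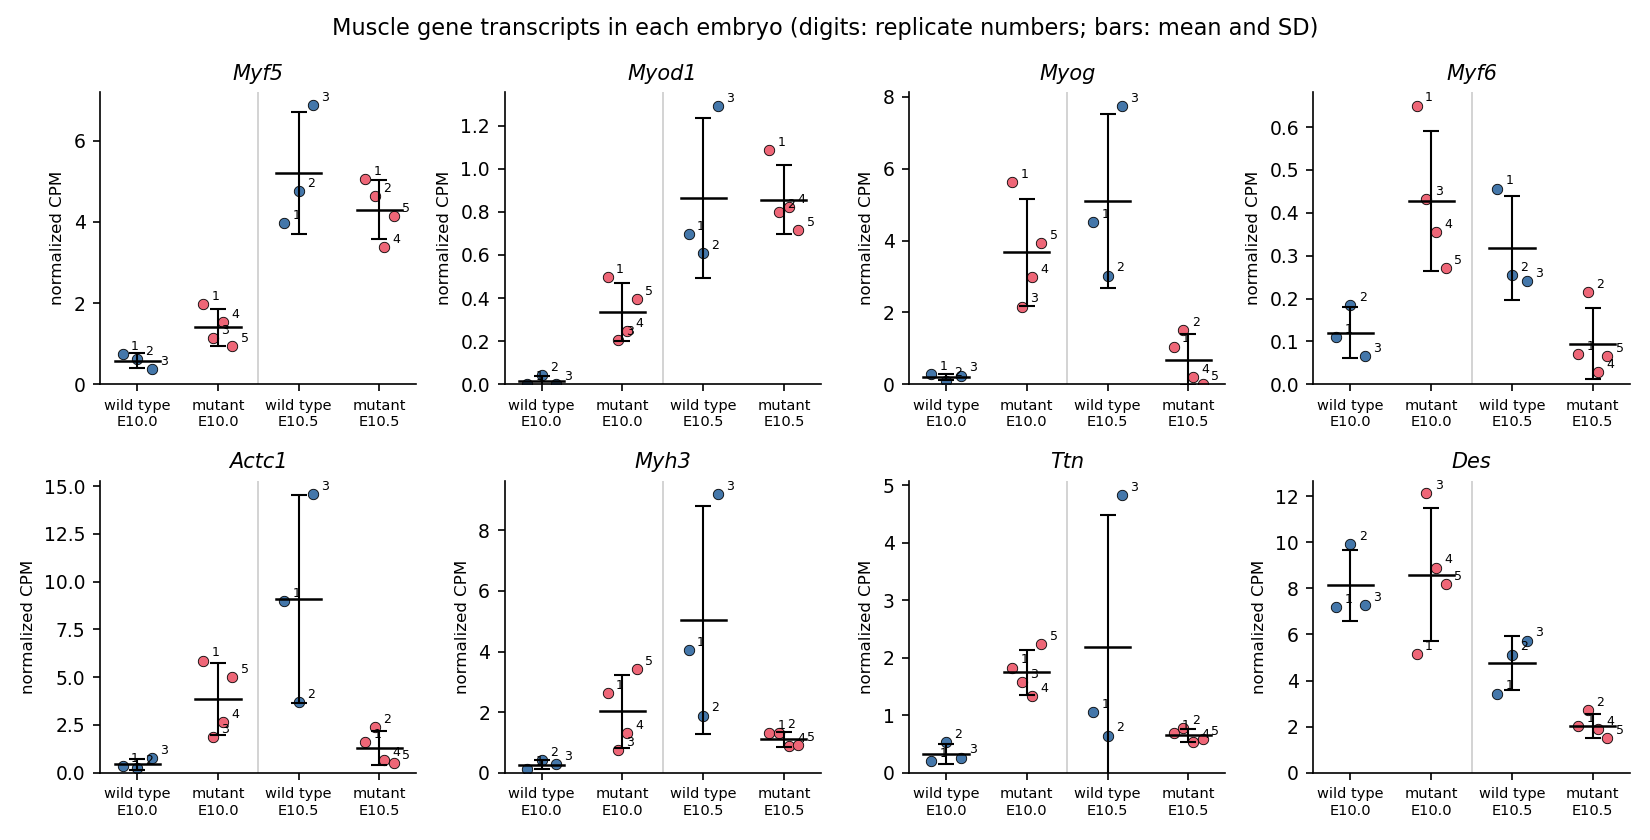
Normalized CPM (vertical axes, linear, from 0) of 4 regulatory factors and 4 structural genes in each of the 14 embryos, by genotype and stage on the horizontal axes, with the mean and SD of each group and the replicate number beside each point. Myf5 and Myod1 are higher in all 7 embryos at E10.5 than at E10.0, whereas in Myog, Myf6, Actc1 and Myh3 the mutants lie above wild type at E10.0 and below it at E10.5. Wild-type replicate 3 is the highest point at E10.5 in 7 of the 8 panels, Myf6 being the exception.

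Of the thick filament genes, Myh3, the embryonic myosin heavy chain (chr11:66891802-66915793, plus strand), separated the genotypes at both stages. Its levels at E10.0 were 0.11, 0.409 and 0.286 CPM in wild-type buds and 2.62, 0.762, 1.31 and 3.42 CPM in mutant buds. At E10.5, wild-type embryos had 4.06, 1.89 and 9.19 CPM and mutants 1.3, 1.33, 0.877 and 0.912 CPM. The mutants were higher at E10.0 by a log2 fold change of 2.91 (SE 0.49), and the value at E10.5 was -2.18 (SE 0.63), or -1.41 without wild-type replicate 3. Mylpf, the regulatory light chain of fast skeletal muscle (chr7:134355122-134357812, plus strand), was at 1.28, 1.88 and 1.41 CPM in wild-type buds and 2.74, 1.18, 2.08 and 2.36 CPM in mutant buds at E10.0. At the later stage, Mylpf was at 3.75, 2.34 and 6.15 CPM in wild-type buds and 1.89, 2.28, 1.9 and 1.89 CPM in mutant buds. The genotypes overlapped at E10.0 and did not at E10.5, and the log2 fold changes were 0.45 (SE 0.27) and -1.03 (SE 0.38), the latter -0.60 without wild-type replicate 3.

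The other 4 thick filament genes stayed under 1 CPM in most embryos and were not tested. Myl1, an essential light chain of fast muscle, separated the genotypes in both directions, with means of 0.0507 ± 0.0511 and 0.485 ± 0.316 CPM at E10.0 and of 1.31 ± 0.899 and 0.216 ± 0.12 CPM at E10.5 for wild type and mutants. Myh7, the slow and cardiac heavy chain, ranged from 0 to 0.722 CPM, and the perinatal heavy chain Myh8 from 0 to 0.613 CPM. Myl4, the embryonic and atrial light chain, ranged from 0.0613 to 0.569 CPM. The group means of these 4 genes were higher in mutants than in wild type at E10.0 and lower at E10.5.

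Actc1, the cardiac actin that is also the main sarcomeric actin of embryonic skeletal muscle (chr2:113873018-113879284, minus strand), reached the highest level per transcript length among the members called between genotypes. It was at 0.329, 0.225 and 0.748 CPM in wild-type buds and 5.87, 1.89, 2.65 and 5.02 CPM in mutant buds at E10.0. At E10.5, its levels were 8.96, 3.71 and 14.6 CPM in wild-type buds and 1.62, 2.4, 0.679 and 0.488 CPM in mutant buds. The mutants lay above all wild-type embryos at E10.0 and below all of them at E10.5, with log2 fold changes of 3.15 (SE 0.48) and -2.79 (SE 0.70). Without wild-type replicate 3 the second value was -2.26. Actin transcripts share long stretches of near-identical sequence, and only uniquely mapped reads were counted, hence the levels of Actc1, Acta1 and Acta2 are uncertain.

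Acta2, the smooth muscle actin that early myoblasts also express (chr19:34315580-34329826, minus strand), was at 0.64, 0.92 and 0.88 CPM in wild-type buds and 2.48, 1.61, 3.09 and 2.19 CPM in mutant buds at E10.0. At the later stage, Acta2 was at 3.22, 2.16 and 5.89 CPM in wild-type buds and 1.39, 2.44, 1.13 and 1.21 CPM in mutant buds. No mutant overlapped with wild type at E10.0, 1 did at E10.5, and the log2 fold changes were 1.52 (SE 0.22) and -1.27 (SE 0.45), the latter -0.78 without wild-type replicate 3. The adult skeletal actin Acta1 stayed between 0.0731 and 1.09 CPM, with its highest mean in wild type at E10.5 (0.863 ± 0.39 CPM). Tpm2, beta-tropomyosin, had the most reads of all members, and its means were 20.0 ± 0.581 CPM in wild-type buds and 25.8 ± 6.22 CPM in mutant buds at E10.0 and 29.1 ± 1.7 and 29.6 ± 6.39 CPM at E10.5. Its log2 fold changes between genotypes were 0.37 (SE 0.16) and 0.03 (SE 0.16).

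The troponins, which make the thin filament sensitive to calcium, fell into several patterns. Tnnt1, the slow troponin T (chr7:4456172-4467984, minus strand), was at 0.695, 0.756 and 0.682 CPM in wild-type buds and 1.47, 1.14, 1.5 and 1.4 CPM in mutant buds at E10.0. At E10.5, wild type had 2.11, 1.63 and 3.54 CPM and mutants 1.35, 1.33, 1.3 and 1.3 CPM. The 8 mutants lay between 1.14 and 1.5 CPM at both stages, above wild type at E10.0 and below it at E10.5, with log2 fold changes of 0.95 (SE 0.08) and -0.87 (SE 0.30). The second value was -0.49 without wild-type replicate 3. Tnni1, the slow troponin I, had means of 3.19 ± 1.44 and 3.73 ± 0.894 CPM at E10.0 in wild type and mutants, with overlap, and of 2.33 ± 0.882 and 1.18 ± 0.148 CPM at E10.5, without overlap. Tnnt3, the fast troponin T, differed little, with log2 fold changes of 0.14 (SE 0.12) and 0.11 (SE 0.27).

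The remaining troponins stayed low. Tnnt2, the cardiac troponin T of early muscle, ranged from 0.110 to 1.14 CPM, the fast troponin I Tnni2 from 0.132 to 0.606 CPM, and the slow and cardiac troponin C Tnnc1 from 0.264 to 1.84 CPM. Tnnc2, the fast troponin C, ranged from 0.260 to 1.15 CPM and shares 592 exon bases with Ube2c on the opposite strand, which was counted at up to 10365 reads in these unstranded libraries, so that its level is uncertain. All 4 had higher group means in mutants at E10.0 and lower ones at E10.5.

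Ttn, which encodes titin (chr2:76542037-76820604, minus strand), was at 0.201, 0.532 and 0.264 CPM in wild-type buds and 1.83, 1.57, 1.34 and 2.24 CPM in mutant buds at E10.0. At the later stage, Ttn was at 1.06, 0.648 and 4.84 CPM in wild-type buds and 0.694, 0.781, 0.538 and 0.586 CPM in mutant buds. Mutants lay above wild type without overlap at E10.0, whereas wild-type replicate 2 lay among the mutants at E10.5. The log2 fold change at E10.0 was 2.39 (SE 0.28). The value at E10.5 was -1.73 (SE 0.76), and it was -0.35 without wild-type replicate 3, so that its size rested on that embryo. Neb, which encodes nebulin (chr2:51992167-52194318, minus strand), was at 0.384, 0.859 and 0.704 CPM in wild-type buds and 1.23, 1.33, 0.765 and 1.65 CPM in mutant buds at E10.0, and at 1.32, 0.57 and 2.41 and 1.12, 0.761, 0.538 and 0.423 CPM at E10.5. The genotypes overlapped at both stages, with log2 fold changes of 0.94 (SE 0.31) and -0.98 (SE 0.54), the latter -0.35 without wild-type replicate 3.

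Des, which encodes the intermediate filament desmin (chr1:75356904-75365154, plus strand), differed from most members in that it was higher at the earlier stage. It was at 7.18, 9.92 and 7.29 CPM in wild-type buds and 5.15, 12.2, 8.9 and 8.19 CPM in mutant buds at E10.0, with overlap. At E10.5 it was at 3.44, 5.13 and 5.73 CPM in wild-type buds and 2.03, 2.73, 1.9 and 1.5 CPM in mutant buds, without overlap. The levels were thus lower at E10.5 than at E10.0 in both genotypes, and the log2 fold changes between genotypes were 0.08 (SE 0.29) and -1.21 (SE 0.26). The second value was -1.05 without wild-type replicate 3. Of the other scaffold genes, Actn2, the alpha-actinin of the Z-disc, ranged from 0.368 to 1.73 CPM, and Xirp1, an actin-binding repeat protein, had at most 4 reads in any library.

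Smyd1, a methyltransferase that also chaperones myosin (chr6:71163934-71272227, minus strand), was at 0.347, 0.164 and 0.066 CPM in wild-type buds and 1.45, 0.987, 0.574 and 1.03 CPM in mutant buds at E10.0. At E10.5 it was at 0.913, 0.766 and 1.9 CPM in wild-type buds and 0.196, 0.761, 0.283 and 0.195 CPM in mutant buds. All mutants lay above wild type at E10.0 and below it at E10.5, although mutant replicate 2 and wild-type replicate 2 were nearly equal at the later stage (39 reads each). The log2 fold changes were 2.36 (SE 0.34) and -1.69 (SE 0.44). Cdh15, M-cadherin, an adhesion molecule of myoblasts (chr8:125371866-125391297, plus strand), was at 0.621, 0.593 and 0.374 CPM in wild-type buds and 1.45, 0.71, 1.26 and 1.13 CPM in mutant buds at E10.0, and at 1.54, 1.06 and 2.98 and 1.03, 1.17, 1.58 and 1.14 CPM at E10.5. Mutants lay above wild type at E10.0, and the genotypes overlapped at E10.5, with log2 fold changes of 1.09 (SE 0.23) and -0.60 (SE 0.40), the latter -0.07 without wild-type replicate 3.

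Unc45b, a chaperone of myosin, ranged from 0.121 to 1.62 CPM. Ckm, the muscle creatine kinase of mature fibres, had 1 read in each of 2 libraries and none in the other 12. Of the calcium handling genes, Ryr1, the calcium release channel, was well measured, at means of 6.72 ± 1.02 and 8.4 ± 1.2 CPM at E10.0 and 7.08 ± 0.899 and 7.11 ± 0.797 CPM at E10.5. Its log2 fold changes between genotypes were 0.32 (SE 0.16) and 0.00 (SE 0.13). Casq2, a calcium store protein, ranged from 0 to 0.919 CPM, and Cacna1s, the voltage sensor of the fibre membrane, from 0 to 0.285 CPM. Cacna1s was the only member with a lower mean in mutants at both stages.

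**Figure D2:**
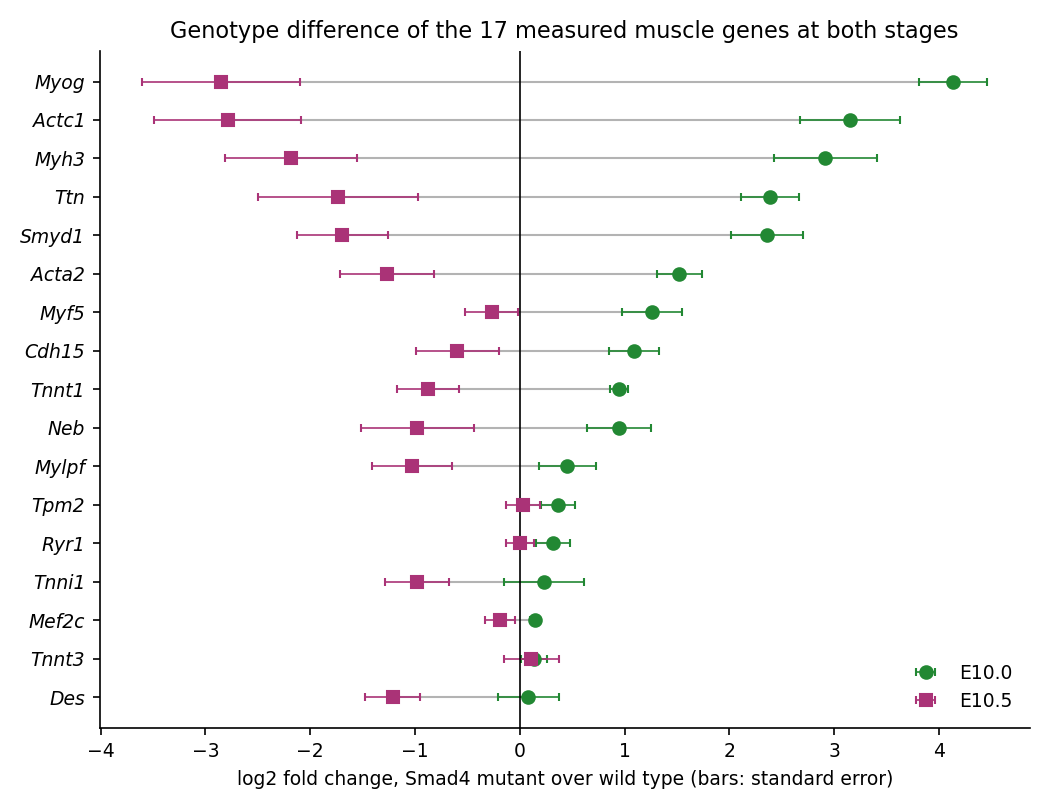
Log2 fold change of mutant over wild type (horizontal axis, with the standard error from the embryos) of the 17 tested muscle genes at E10.0 (circles) and E10.5 (squares), ordered by the value at E10.0. Myog, Actc1, Myh3, Ttn and Smyd1 span the widest distance between the stages, from 4.14 to -2.85 in Myog, while Tnnt3, Ryr1, Tpm2 and Mef2c lie within 0.37 of 0 at both stages.

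Over all 34 genes, 29 had a higher mean in mutants at E10.0 and a lower one at E10.5. These 29 included 14 of the 17 tested members, and a higher then lower sign was found in 16.7% of all tested genes. Tnnt3, Ryr1 and Tpm2 had higher means in mutants at both stages. Complete separation of the embryos in the opposite directions was seen in 7 members, Myog, Myf6, Myh3, Myl1, Actc1, Tnnt1 and Smyd1, of which 5 were tested, and in 0.121% of all tested genes. All mutants lay above all wild-type embryos in 17 members at E10.0 (11 of the tested ones, against 8.07% of all tested genes) and below them in 16 members at E10.5 (8 of the tested ones, against 6.4%). At an FDR up to 0.1 and a 1.2-fold or larger change, edgeR's exact test called 9 of the 17 higher in mutants and none lower at E10.0, where 6.61% of all tested genes were called, 3.33% higher and 3.28% lower. These were Myog, Myf5, Myh3, Actc1, Acta2, Tnnt1, Ttn, Cdh15 and Smyd1. At E10.5 it called none higher and 10 lower, where 3.73% of all tested genes were called, 2.19% higher and 1.54% lower. These were Myog, Myh3, Mylpf, Actc1, Acta2, Tnnt1, Tnni1, Ttn, Des and Smyd1. Both calls were made for 7 members, Myog, Myh3, Actc1, Acta2, Tnnt1, Ttn and Smyd1, and for 0.0888% of all tested genes. The genes had been picked on these comparisons.

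The counts at E10.5 depended on wild-type replicate 3, on the replicates kept and on the test. With any other single library of that stage left out, 9 to 11 members were called lower. Without wild-type replicate 3, 4 members were called lower at E10.5, namely Myog, Myh3, Actc1 and Des, and Smyd1 no longer passed the filter. When the fit was restricted to the replicates numbered 1 to 3, 4 members were called lower as well. The log2 fold changes were then -1.99 for Myog, -2.17 for Actc1, -1.93 for Myh3 and -0.99 for Des. This fit leaves out mutant replicates 4 and 5, the libraries with more ribosomal RNA precursor, and at E10.0 it called 8 members higher, with a log2 fold change of 4.23 for Myog. By the quasi-likelihood test on all libraries, 6 members were called lower at E10.5, and the calls of Mylpf, Tnni1, Ttn and Smyd1 were lost. The share of all tested genes called in these fits is not given, so nothing is read from their counts.

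**Figure D3:**
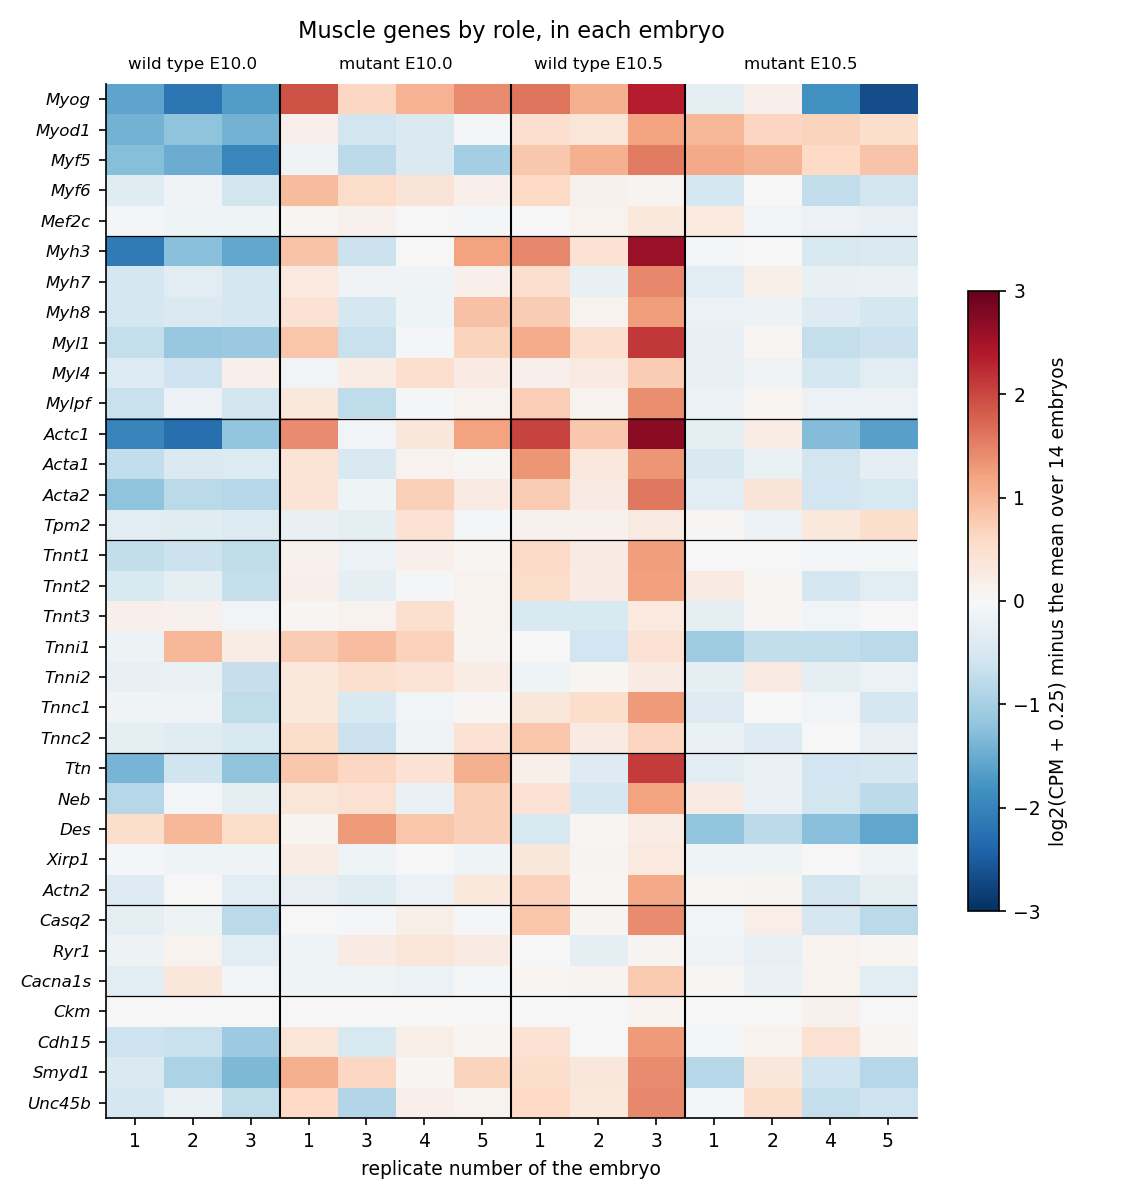
The 34 muscle genes (rows, grouped by role from regulatory factors at the top to chaperones, enzymes and adhesion at the bottom) in the 14 embryos (columns, by group and replicate number). The color gives log2(CPM + 0.25) minus the mean of the gene over all embryos, red above and blue below it. Most rows are blue in wild type at E10.0 and red in wild type at E10.5, deepest in replicate 3, while Des and Tnni1 are bluest in the mutants at E10.5.

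Averaged over the 34 genes, log2(CPM + 1) gave a single value per embryo, which was 0.814 ± 0.0603 for the 3 wild-type embryos and 1.23 ± 0.106 for the 4 mutants at E10.0 (mean ± SD). At E10.5 the values were 1.48 ± 0.331 in wild type and 0.978 ± 0.0971 in mutants. The embryos of the 2 genotypes did not overlap at either stage, with 0.772 to 0.883 against 1.09 to 1.33 at E10.0 and 1.19 to 1.84 against 0.887 to 1.10 at E10.5. The difference of mutant minus wild type was 0.41 at E10.0 and -0.51 at E10.5, or -0.33 without wild-type replicate 3. Wild-type embryos spread more at E10.5 than those of any other group, from 1.19 in replicate 2, the lowest of its group for 23 of the 34 genes, to 1.84 in replicate 3.

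The change from E10.0 to E10.5 averaged over the genotypes, with each embryo given the same weight, was tested. It is uncorrelated with the genotype differences for which the genes had been picked only where all groups vary alike. Wild-type embryos spread more at E10.5 than the other groups, and a gene can pass the filter through the group in which it is high. The counts and P values of the members are therefore given as a description. Of the 17 members, 8 rose and 2 fell with stage by edgeR's quasi-likelihood test, against 10.7% and 8.76% of all tested genes (19.5% in all). Myf5 rose most, with a log2 fold change of 2.27 (SE 0.19) (adjusted P=2.59e-06, edgeR quasi-likelihood test with Benjamini-Hochberg adjustment). Myh3 rose by 1.33 (SE 0.38) on the log2 scale (edgeR adjusted P=0.0245), Cdh15 by 0.83 (SE 0.21) (adjusted P=0.0175) and Tnnt1 by 0.73 (SE 0.14) (adjusted P=0.00398). Rises with larger adjusted P were called for Tpm2 (0.34, edgeR adjusted P=0.0402), Mylpf (0.57, adjusted P=0.0606), Acta2 (0.62, adjusted P=0.0711) and Actc1 (1.03, adjusted P=0.0768).

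Des and Tnni1 fell with stage. The log2 fold change was -1.50 (SE 0.20) for Des (adjusted P=5.29e-05, edgeR quasi-likelihood test) and -1.15 (SE 0.22) for Tnni1 (edgeR adjusted P=0.00129). For Des, the 7 embryos at E10.0 ranged from 5.15 to 12.2 CPM and the 7 at E10.5 from 1.5 to 5.73 CPM. The other 7 tested members passed no threshold, among them Myog (0.67 (SE 0.44), adjusted P=0.325, edgeR quasi-likelihood test), whose changes in the 2 genotypes had opposite signs. Ttn (0.36), Smyd1 (0.27), Mef2c (0.07), Neb (0.06), Ryr1 (-0.11) and Tnnt3 (-0.31) were also not called. The calls of Myf5, Tnnt1, Cdh15, Tpm2, Tnni1 and Des were kept in all 20 alternative analyses. These drew on the same embryos, so that this too is a description. Without wild-type replicate 1 at E10.0, 6 of the 10 calls were left, and those of Myh3, Mylpf, Actc1 and Acta2 were lost. For several of these genes the average describes neither genotype. The log2 fold changes with stage in wild type and mutants were 4.23 and -0.87 for Myh3, 4.39 and -1.55 for Actc1, and 2.21 and -0.59 for Acta2, with opposite signs. Tnnt1 (1.77 and -0.06), Mylpf (1.42 and -0.07) and Cdh15 (1.80 and 0.11) had values near 0 in mutants. Myf5 (3.15 and 1.62) and Tpm2 (0.54 and 0.20) had positive values in both genotypes.

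Within wild type, 27 of the 34 genes had every embryo at E10.5 above every embryo at E10.0, 12 of them among the 17 tested, against 16.6% of all tested genes. Des was the only member with the reverse order (20.4% of all tested genes). Within mutants, Myod1 and Myf5 had every embryo at E10.5 above those at E10.0, and 7 members had them below, namely Myog, Myf6, Myl4, Tnnt3, Tnni1, Ttn and Des. The shares over all tested genes were 11.1% and 8.91%. By edgeR's exact test, 12 tested members were called higher and 1 lower with stage in wild type (5.39% and 4.74% of all tested genes, 10.1% in all), and 1 higher and 6 lower in mutants (10.8% and 8.4%, 19.2% in all). These comparisons are made from the same 4 group means as the genotype differences and were not read as further evidence.

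Per kilobase of exon, which allows levels of different genes to be compared, Tpm2 was the most abundant member in wild type at E10.5 (9.98 ± 0.584 CPM per kb). Actc1 (5.61 ± 3.36), Mylpf (4.61 ± 2.18), Myog (3.45 ± 1.63), Mef2c (2.53 ± 0.27), Myf5 (2.5 ± 0.722) and Acta2 (2.11 ± 1.08 CPM per kb) followed. The neighbours in this order from Actc1 onwards overlapped within their SD. In mutants at E10.5, Tpm2 (10.2 ± 2.19 CPM per kb) was followed by Mylpf (2.25 ± 0.222), Mef2c (2.22 ± 0.386) and Myf5 (2.06 ± 0.348 CPM per kb). Actc1 (0.801 ± 0.548) and Myog (0.465 ± 0.479 CPM per kb) stood below these 4.

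A list of 64 other skeletal muscle genes was examined in the same fits, of which 63 were counted and 22 tested. This list and the marker lists below had been chosen with earlier results of these data known. Their P values are therefore given as a description. At E10.0, 3 were called higher in mutants and none lower, against 3.33% and 3.28% of all tested genes. Atp2a1, the calcium pump of fast muscle, had means of 0.323 ± 0.12 and 1.09 ± 0.55 CPM in wild type and mutants (log2 fold change 1.77 (SE 0.34), adjusted P=9.07e-04, edgeR exact test). Stac3, a partner of the voltage sensor, was higher by 0.82 (SE 0.28) (edgeR adjusted P=0.0777), and alpha-tropomyosin Tpm1 by 0.38 (SE 0.09) (edgeR adjusted P=0.00347). At E10.5, 2 were called lower and none higher, Jph2 (-1.01 (SE 0.11), edgeR adjusted P=8.64e-05), which ties the cell membrane to the calcium store, and Kbtbd10, also known as Klhl41 (-0.96 (SE 0.36), edgeR adjusted P=0.0549). Of all tested genes, 1.54% were called lower and 2.19% higher at that stage. The median log2 fold change of the 22 was 0.07 at E10.0 and -0.17 at E10.5, against -0.02 and -0.01 for all tested genes. Tpm3 and Atp2a2, which many cell types express, were the most abundant genes of this list, and Cav3, Cacng1, Hspb3 and Ckmt2 had 0 to 2 reads in every library. With stage averaged over the genotypes, 5 of the 22 rose and 2 fell, against 10.7% and 8.76% of all tested genes.

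Of the 8 genes of the nerve contact of muscle, 2 were tested, and these had higher means in mutants at both stages. Chrna1, the alpha subunit of the muscle acetylcholine receptor, was at 1.77 ± 0.344 CPM in wild-type buds and 7.59 ± 1.89 CPM in mutant buds at E10.0, and at 2.94 ± 0.427 and 10.04 ± 1.22 CPM at E10.5. It was called higher in mutants at both stages, with log2 fold changes of 2.10 (SE 0.24) (adjusted P=2.78e-18, edgeR exact test) and 1.77 (SE 0.14) (edgeR adjusted P=4.09e-14). Chrnb1 was called at neither stage (0.80 and 0.29). Of the 6 genes not tested, Chrng, the embryonic gamma subunit of the receptor, had the signs of most members, with means of 0.048 ± 0.0319 and 0.154 ± 0.112 CPM at E10.0 and of 0.385 ± 0.165 and 0.0368 ± 0.0328 CPM at E10.5, where all mutants lay below wild type. Rapsn, Dok7 and Musk had these signs as well, with overlap at both stages, and Chrne and Musk had 0 to 2 reads in every library. Of the 12 genes of limb muscle precursors, 11 were tested and none was called lower in mutants. Dmrt2 was called higher in mutants at both stages and Meox2 at E10.5. Pax3, Met and Six4 were called at neither stage, and the precursor list summed to 222 to 246 CPM in wild-type buds and 256 to 267 CPM in mutant buds at E10.0 and to 293 to 323 and 301 to 355 CPM at E10.5. Met and Six4 were its most abundant genes.

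Markers of other tissues moved with the muscle genes in part. The 6 counted markers of the mesothelium and body wall summed to 4.84 to 6.65 CPM in wild-type buds and 12.1 to 25.7 CPM in mutant buds at E10.0, and to 7.69 to 10.2 and 4.04 to 7.36 CPM at E10.5. This is the order of the muscle genes at both stages. Wt1, the most abundant of them with Gpm6a, had log2 fold changes of 2.38 (SE 0.38) at E10.0 (adjusted P=5.53e-07, edgeR exact test) and -1.42 (SE 0.45) at E10.5 (edgeR adjusted P=0.00567). Upk3b had 3.35 (SE 0.57) (edgeR adjusted P=1.04e-06) and -1.76 (SE 0.44) (edgeR adjusted P=0.0329). Gpm6a was called at neither stage (0.01 and -0.14). Among the mutants at E10.0, the mesothelial sum was highest in replicates 3 and 4 (25.7 and 22.3 CPM) and lower in replicates 1 and 5 (13.8 and 12.1 CPM). The order of the muscle genes in these embryos varied. Myog, Actc1, Myh3, Ttn and Smyd1 were highest in replicates 1 and 5, and Acta2, Tnnt1, Myf5 and Cdh15 in replicates 1 and 4. Des and Tnni1 were highest in replicate 3 and Tpm2 in replicate 4. The part of these tissues in the muscle gene differences was not tested.

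The 10 somite and trunk genes summed to 29.6 to 30.8 CPM in wild-type buds and 32.1 to 42.5 CPM in mutant buds at E10.0. At E10.5 the sums were 48.3 to 56.8 and 37.1 to 41.7 CPM. The sum thus had the order of the muscle genes, but most of its tested genes did not follow that order. At E10.5, 3 of the 5 tested had a positive log2 fold change of mutant over wild type and 2 a negative one. Of the 5 tested, 3 were called higher and 1 lower in mutants at E10.0 (3.33% and 3.28% of all tested genes). At E10.5, 2 were called higher and 1 lower (2.19% and 1.54%). Dmrt2, which is also in the list of muscle precursors, was among those called higher at both stages. The most abundant genes of the list were Meox1, with means of 19.9 ± 1.68 and 26.3 ± 4.41 CPM at E10.0, and Pax1, which was lower in mutants at both stages (log2 fold changes -2.87 and -2.61). Nkx3-2 and Ripply1 of this list had 0 to 2 reads in every library. The 13 cardiac genes summed to 2.71 to 5.49 CPM over all embryos, overlapping between genotypes at both stages, with Nppb and Nkx2-5 at 0 to 2 reads. Their most abundant genes, Hcn4 and Ryr2, were the 2 tested. Ryr2 was called higher in mutants at both stages, without overlap (log2 fold changes 1.28 (SE 0.34), adjusted P=0.00939, and 0.98 (SE 0.25), adjusted P=0.0877, edgeR exact test), and Hcn4 lower at E10.5 (-0.88 (SE 0.17), edgeR adjusted P=0.0715). The 10 smooth muscle genes, led by Smtn and Mylk, summed to 43.8 to 78.7 CPM and also overlapped. Of the 5 tested, Tagln (0.97 (SE 0.26), edgeR adjusted P=0.00228) and Myl9 (0.71 (SE 0.19), edgeR adjusted P=0.0109) were called higher in mutants at E10.0, where all mutants lay above wild type, as for Acta2, and none was called at E10.5. Of the 11 limb genes, led by Prrx1 and Lhx9, 10 were tested. In E10.0 mutants, 4 were called lower and none higher (3.28% and 3.33% of all tested genes). In E10.5 mutants, 3 were called lower and 1 higher (1.54% and 2.19%). The same shares of all tested genes stand beside the cardiac and smooth muscle calls. Prrx1 was at 733 ± 81.2 and 601 ± 70.8 CPM at E10.0. The part of these tissues in the muscle gene differences was not tested either.

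**Figure D4:**
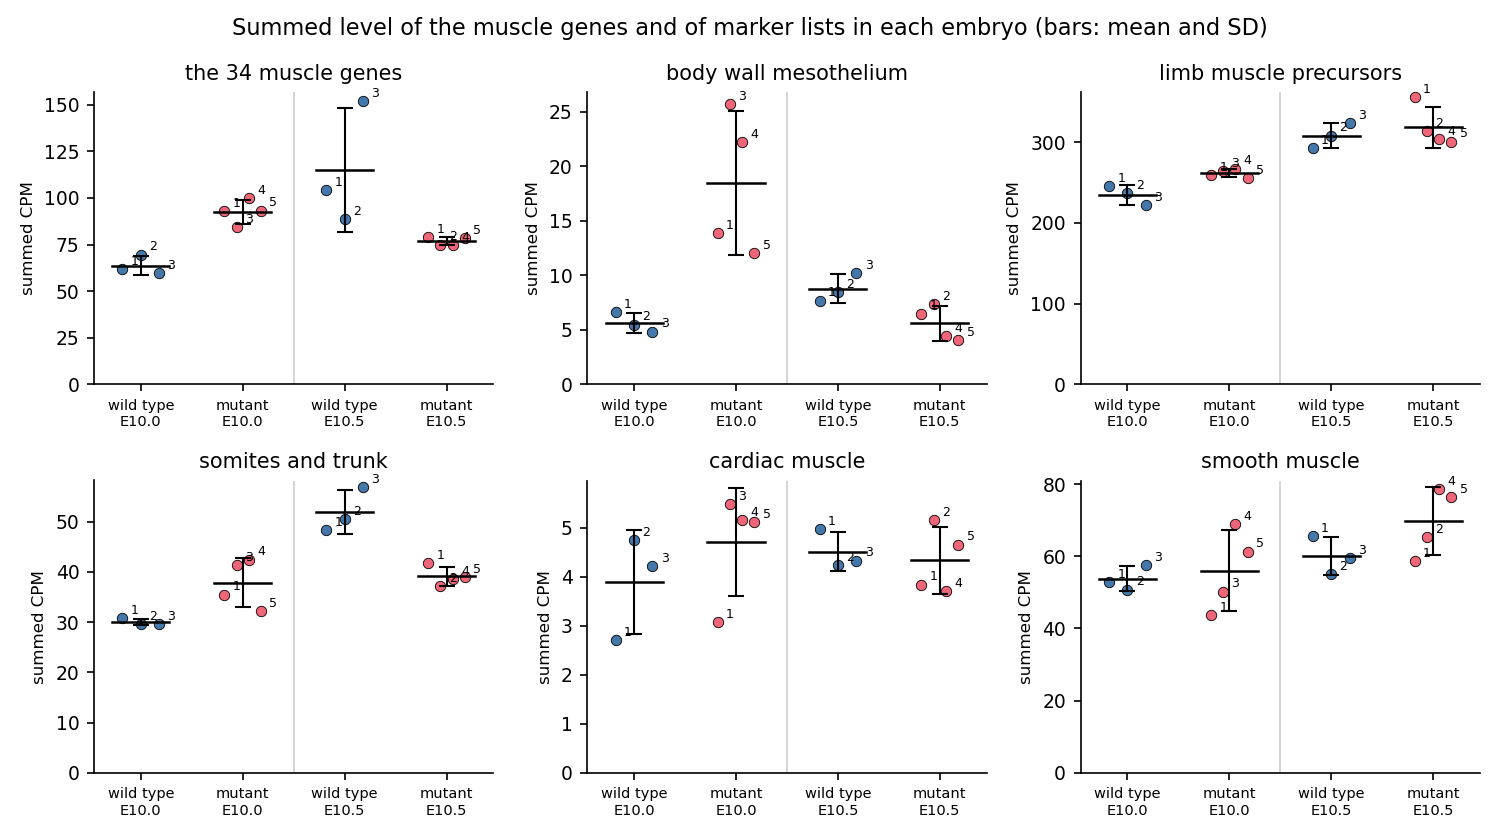
Summed CPM (vertical axes, linear, from 0) of the 34 muscle genes and of 5 marker lists in each embryo, by genotype and stage on the horizontal axes, with the mean and SD of each group and the replicate numbers. The sums of the muscle genes, the mesothelial markers and the somite and trunk genes are higher in all mutants than in all wild-type embryos at E10.0 and lower in all of them at E10.5, whereas the sums of the cardiac and smooth muscle lists overlap between genotypes at both stages. Of the 5 tested somite and trunk genes, 3 had a positive log2 fold change of mutant over wild type at E10.5, unlike their sum.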

How the data were processed

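The data are 14 polyA RNA-seq libraries, sequenced as unstranded single reads. The authors aligned them to mm9 with TopHat2 2.0.13, used HTSeq to count uniquely mapped reads by gene symbol and deposited raw counts, with no normalization. Near-identical or overlapping genes were thus measured incompletely.

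The 1041 symbols of chromosomes X, Y and M were excluded. Libraries were scaled by TMM (factors 0.934 to 1.04), and edgeR 4.0.16 (R 4.3.3) estimated tag-wise dispersions over all 14 libraries with a prior of 10 degrees of freedom. Pairs of groups were compared by its exact test, as in the study, and the stage change averaged over embryos and the interaction by its quasi-likelihood test, each adjusted by Benjamini-Hochberg over 12393 genes. Calls needed an FDR up to 0.1 and a 1.2-fold or larger change. The tests were checked on simulated data. Standard errors came from the embryo variances of log2(CPM + 0.25), not from the fits that gave the fold changes, and can be too small at low levels. DESeq2 1.42.0, other filters, replicate blocks and single libraries left out were alternatives.

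The muscle genes and all lists were chosen with earlier results of these data known. Each embryo value is given for the 4 regulatory factors and the 10 other tested members whose genotype differences changed most between stages. Of the other skeletal muscle genes, those called between genotypes are named, and of each marker list the 2 most abundant and those at 0 to 2 reads. Further marker genes were chosen after their values were seen, and 1 gene is not reported here. The MEF2 motif with a free last base was searched after the first matches had been seen.

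Groups share replicate numbers in the labels. Deviations from the group means of same-numbered wild-type and mutant libraries correlated between -0.261 and 0.174, so that the numbers do not pair genotypes. Those of same-numbered mutants at the 2 stages correlated at 0.572, 0.611 and 0.269, and those of other numbers at up to 0.383. Replicate 5 at E10.0 correlated more with replicate 4 at E10.5 (0.286) than with replicate 5 (0.269). Replicates 1 to 3 against replicates 4 and 5 gave -0.587 to -0.174. The numbers thus do not clearly pair the mutants across stages. A replicate block within mutants gave 9 members called with stage against 7. Counts of replicates differed by more than sampling noise.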

Additional observations from a re-analysis of the deposited data

Results flagged for a closer look

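Among the 4 mutant embryos at E10.5, replicate 2 stood above the others in Smyd1 (0.761 CPM, with the others at 0.196 to 0.283 CPM) and in Mylpf (2.28 CPM, with the others at 1.89 to 1.90 CPM). Chance sets such a value apart in about 1 in 20 groups of this size, which holds for each gene and group looked at.

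The difference between mutant and wild type itself differed between the stages for 2 mesothelial genes, by edgeR's quasi-likelihood test of the interaction. The log2 difference of E10.5 minus E10.0 was -3.75 for Wt1 (edgeR adjusted P=0.019) and -5.05 for Upk3b (edgeR adjusted P=0.0366), with every mutant above every wild-type embryo at E10.0 in both genes. In 0.186% of all tested genes this interaction was called. The mesothelial list had been chosen with earlier results of these data known, so its P values are given as a description.

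For 5 muscle genes all mutants lay above wild type at E10.0 and below it at E10.5, and the log2 fold change at E10.5 minus that at E10.0 was -6.99 for Myog, -5.94 for Actc1, -5.10 for Myh3, -4.06 for Smyd1 and -1.82 for Tnnt1. These differences are given as a description, because the genes had been picked for them. The fit of the interaction across all genes called 7 of the 17 tested muscle genes, from which nothing is read.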

How the results depend on the processing

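The direction of the counts of muscle genes called between genotypes was the same in all alternatives, and their number was not. Without the CPM filter 33 members were tested in place of 17, so that its counts have another base. The share of all genes called in each alternative is not given, and nothing is read from these numbers. At E10.0, where 9 were called, it was 14 without the CPM filter and 7 to 10 with single libraries left out. At E10.5, where 10 were called, it was 20 without the filter, 6 by the quasi-likelihood test, 1 with a replicate block, 4 with the replicates numbered 1 to 3, and 4 to 11 with single libraries left out, the lowest without wild-type replicate 3. With stage in wild type, 13 were called, 24 without the filter and 10 to 12 with single libraries left out. With stage in mutants, 7 were called, 4 with the replicates numbered 1 to 3 and 6 to 9 with single libraries left out. For the averaged stage change, 10 were called, 6 to 11 with single libraries left out. The replicate block changed no other count of muscle genes by over 1.5 times.

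Of the other skeletal muscle genes, 58 were tested without the filter, in place of 22. At E10.0, 3 of them were called, 7 without the filter and 2 to 3 with single libraries left out. At E10.5, 2 were called, 6 without the filter, 1 to 2 with single libraries left out, and 1 each by the quasi-likelihood test, by DESeq2, with the replicate block and with the replicates numbered 1 to 3. For the averaged stage change, 7 were called, 15 without the filter and 5 to 8 with single libraries left out. The difference in mean log2(CPM + 1) at E10.0, 0.41, was 0.75 with a pseudocount of 0.25, 0.63 over tested members and 0.38 to 0.46 with single libraries left out. At E10.5, -0.51, it was -0.82 with that pseudocount and -0.65 to -0.33 with single libraries left out. The log2 fold change of Des at E10.0, 0.08 and at most 0.27 with single libraries left out, turned to -0.14 without mutant replicate 3 and to -0.00090 without wild-type replicate 1. Without the filter more genes were tested, and with libraries left out fewer samples. For the other settings the cause was not tested. With 3 and 4 embryos and most members at a few CPM or less, small differences were not detectable at this depth.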
